A study of Mus musculus with 4 samples.

Results

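The genes described here are 10 interleukin receptor subunits of T cells, chosen by symbol from the 52636 genes counted in each library: Il2ra, Il2rb, Il2rg, Il21r, Il7r, Il4ra, Il6ra, Il6st, Il10ra and Il27ra. All 10 had enough reads to be tested. They were picked with earlier results of these libraries known, so their values are given as a description of the libraries. RNA was sequenced from regulatory T cells, the suppressive CD4 T cells that keep immune responses in check, sorted from C57BL/6 mice aged 7 weeks by surface markers that include CD4 and bright CD25. By their label, the 2 libraries titled Vav1R63W-Themis1-T-/-, called here the libraries labelled Themis1-T-/-, come from mice with Themis1 deleted in T cells. Themis1 is a T cell receptor signalling protein. By the same label these mice also carry Vav1R63W, an altered allele of the signalling protein Vav1. The 2 other libraries come from Vav1R63W mice, so both groups carry the Vav1 allele. No library of wild-type cells is used here, and the labels name neither the driver of the deletion nor how many animals gave each library. Each group holds replicates numbered 2 and 3. Separate mice are not stated for the replicates, so every p-value here reflects the spread of these libraries alone, and that spread may be technical.

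Reads assigned to genes numbered 15953194 and 13963670 in the libraries labelled Themis1-T-/-, replicates 2 and 3, and 14003757 and 14398002 in Vav1R63W replicates 2 and 3. Levels are given in CPM, the usual scaling of a gene's reads by its library's total over genes. Themis, the targeted gene, was at 42.9 CPM in the library labelled Themis1-T-/-, replicate 2, and had 0 reads in replicate 3 of that label, against 20.2 and 6.74 CPM in the Vav1R63W libraries. The targeted gene goes against the label of replicate 2, so each difference below is between labels, and for the receptor genes it is also given without that library where this turns its direction. Whether the removed exons are among those counted for Themis is not stated in the sources used here. Foxp3, the lineage factor of regulatory T cells, was at 1014 and 737 CPM in the libraries labelled Themis1-T-/- and 904 and 636 CPM in the Vav1R63W libraries. Of 16 B cell markers 10 had no read, Ms4a1 and Pax5 among them, although Ighm (immunoglobulin mu heavy chain) had 1274 and 1307 CPM in the libraries labelled Themis1-T-/- and 1111 and 1234 CPM in Vav1R63W. Of 16 monocyte and macrophage markers 12 had no read in the column without strand, Lyz2 among them. Csf1r was also at 0 there, but had 216 and 247 reads in the strand columns of the libraries labelled Themis1-T-/- and 45 and 72 in those of Vav1R63W, all left out as shared with another gene. Ctss was at 840 and 1003 CPM in the libraries labelled Themis1-T-/- and 735 and 805 CPM in Vav1R63W, and the sum of the other markers on that list was 0 and 34.4 CPM in the libraries labelled Themis1-T-/- and 21.9 and 16.9 CPM in Vav1R63W. Of 8 markers of CD8 T and NK cells 5 had reads, led by Cd8b1 and Prf1, and Cd8a, Ncr1 and Klrb1c had none. The sum of the list was 72.9 and 19.6 CPM against 52.9 and 77.0 CPM in Vav1R63W. Ccr7 and Lef1 led the list for conventional CD4 T cells, whose 6 genes all had reads and summed to 1810 and 1970 CPM against 1818 and 2253 CPM in Vav1R63W. Most of that sum was Ccr7. Without Ccr7 the list summed to 584 and 652 CPM in the libraries labelled Themis1-T-/- and 667 and 754 CPM in Vav1R63W. In bulk RNA, fewer cells of a type and less RNA per cell cannot be told apart.

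Interleukin receptors are built from shared chains. The common gamma chain, encoded by Il2rg, pairs with a private chain for IL-4, IL-7 or IL-21 and with the beta chain (Il2rb, CD122) for IL-2. The alpha chain CD25 (Il2ra) raises the affinity for IL-2, on which regulatory T cells depend for survival, and they typically carry much CD25 and little of the IL-7 receptor. Another shared chain, gp130 (Il6st), serves the IL-6 and IL-27 receptors together with Il6ra and Il27ra. Most of these chains carry JAK kinases that phosphorylate STAT factors once a cytokine binds.

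Per kilobase of annotated exon, a scaling for comparing genes, the signalling chains of the IL-2 receptor had the highest means in both groups and the IL-6 chains the lowest. The length takes in all annotated exons of a gene, 11099 bases for Il6st and 3498 for Il10ra, whether or not these cells use them. In plain CPM, Il6st (mean over all libraries 158) stood above Il7r (98.9) and Il10ra (75.2). In the libraries labelled Themis1-T-/- the order of mean CPM per kilobase was Il2rg (297 ± 60.0, SD, n = 2), Il2rb, Il27ra, Il21r, Il4ra, Il2ra, Il10ra, Il7r, Il6st and Il6ra (10.2 ± 2.98). There, among neighbours in the order, the libraries of Il2rg and Il2rb overlapped, as did those of Il21r and Il4ra and of Il4ra and Il2ra. So did those of Il10ra and Il7r and of Il7r and Il6st. Il10ra (14.8 to 28.2) and Il6st (12.8 to 19.2), which are not neighbours, overlapped too. In Vav1R63W cells the order was Il2rb (318 ± 64.9), Il2rg, Il21r, Il27ra, Il2ra, Il4ra, Il7r, Il10ra, Il6st and Il6ra (6.23 ± 3.13), with overlap of the libraries for Il2rb and Il2rg, for Il7r and Il10ra, and for Il6st and Il6ra. Among 10887 protein-coding genes with reads, 98.1% lay below Il2rb and 61.2% below Il6ra in mean CPM per kilobase. Il21r and Il27ra changed places between the labels. The ratio of Il21r to Il27ra per kilobase was 0.873 and 0.478 in the libraries labelled Themis1-T-/- and 1.36 and 1.42 in Vav1R63W cells.

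**Figure D1:**
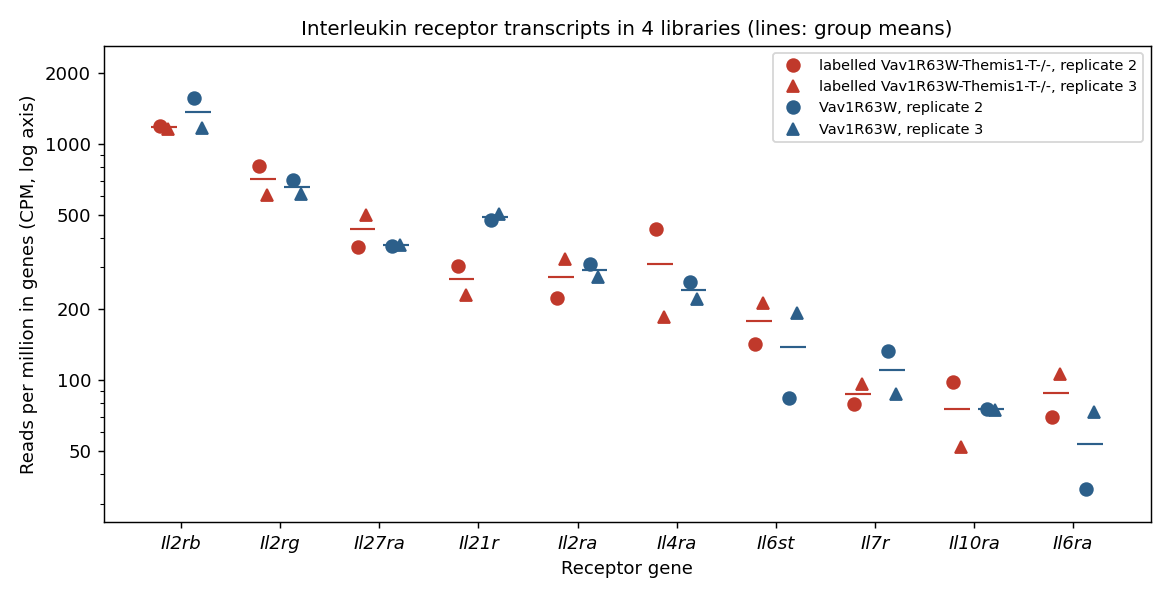
CPM of the 10 receptor genes in each library on a log axis, with the group mean as a line; red is labelled Vav1R63W-Themis1-T-/- and blue Vav1R63W, circles are replicate 2 and triangles replicate 3. The groups are apart for Il21r, at 305 and 228 CPM against 476 and 507 CPM, and overlap for each of the other 9 genes. They are apart for 33.8% of the 3591 genes with a mean of at least 50 CPM.

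Il21r was the 1 receptor gene of 10 whose groups did not overlap, beside 33.8% of the 3591 genes with a mean of at least 50 CPM. It encodes the private chain of the receptor for IL-21, a cytokine that signals mainly through STAT3 and is known to counter suppression by regulatory T cells. Il21r (ENSMUSG00000030745, GRCm38 chromosome 7, 125603429 to 125633570, plus strand) was at 305 and 228 CPM in the libraries labelled Themis1-T-/-, replicates 2 and 3, and 476 and 507 CPM in Vav1R63W replicates 2 and 3. Both libraries labelled Themis1-T-/- lay below both Vav1R63W libraries, and the lowest was replicate 3 of that label. These levels rest on 3187 to 7305 reads. The log2 fold change was -0.86 ± 0.19 (SE; 95% interval -1.38 to -0.34) with edgeR, which ranked Il21r number 21 of 10216 genes by p but did not call it (adjusted p = 0.900). edgeR called 0 genes in all (0%). At an unadjusted p under 0.05 it had 509 genes (4.98%), of which 314 (3.07% of those tested) were lower in the libraries labelled Themis1-T-/-, and Il21r was the 1 receptor gene among them. DESeq2 called Il21r lower (adjusted p = 0.0423), among the 121 genes (1.1%) it called lower of 206 called (1.88%), and no other receptor gene. In the authors' deposited table Il21r had a log2 fold change of -0.81 and an adjusted p of 0.00159, and the table called 123 genes (1.56%), 65 of them (0.826%) lower. It too called no other of the 10. limma-voom did not call Il21r (adjusted p = 0.821). All of these tests used the same reads, and the choice of members had them in view.

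Leaving out any 1 library kept the log2 fold change of Il21r negative, from -1.06 without the library labelled Themis1-T-/-, replicate 2, to -0.69 without replicate 3 of that label (edgeR). Each such fit sets 1 library against 2 and takes the spread from the remaining pair, so the lone library is assumed to vary like the other group. On leaving out the same libraries, DESeq2 gave log2 fold changes of Il21r from -1.06 to -0.68. The libraries labelled Themis1-T-/- differed 1.34-fold in Il21r and the Vav1R63W libraries 1.07-fold. Over the 3591 genes with a mean of at least 50 CPM, the median fold was 1.33 between the libraries labelled Themis1-T-/- and 1.25 between the Vav1R63W libraries. Groups did not overlap for 1213 of those genes (33.8%), with 631 (17.6%) lower as Il21r was. B cells also use Il21r. The B cell markers outside Ighm summed to 52.2 and 62.9 CPM in the libraries labelled Themis1-T-/- and 97.5 and 78.4 CPM in Vav1R63W cells. Ighm itself went the other way, higher in both libraries labelled Themis1-T-/- than in both Vav1R63W libraries. Ms4a1 and Pax5 were at 0 in all 4 libraries. The part of B cells in the Il21r values was not tested.

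**Figure D2:**
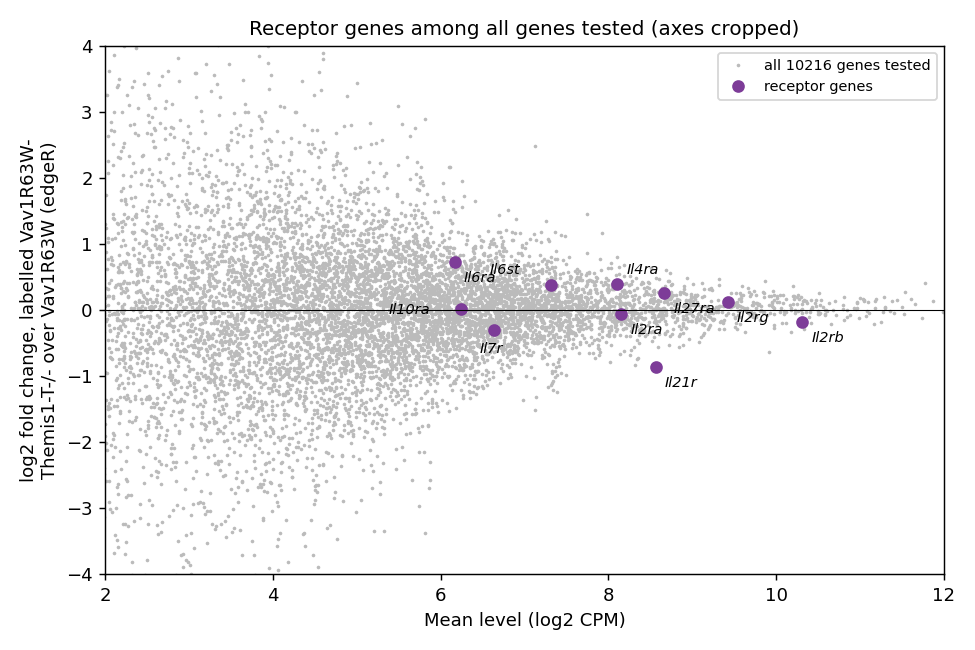
Log2 fold change (libraries labelled Vav1R63W-Themis1-T-/- over Vav1R63W, edgeR) against mean log2 CPM for all 10216 genes tested in grey and the receptor genes in purple; the axes leave out genes beyond their limits. Il21r lies at -0.86, the lowest of the receptor genes. The place of each among genes of like level was not tested.

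Il4ra, the IL-4 receptor alpha chain, is the upstream neighbour of Il21r on chromosome 7 (ENSMUSG00000030748, GRCm38 125552120 to 125579474, plus strand). The annotation puts 24.0 kb and 0 genes between them. Il4ra was at 435 and 185 CPM in the libraries labelled Themis1-T-/- and 259 and 220 CPM in the Vav1R63W libraries. The library labelled Themis1-T-/-, replicate 2, was the highest of all and replicate 3 the lowest, so the groups overlapped. That pair differed 2.35-fold, more than the same pair did in 88.4% of the 3591 genes with a mean of at least 50 CPM. The edgeR log2 fold change was 0.39 (95% interval -0.80 to 1.58, adjusted p = 1.000). It was -0.33 without the library labelled Themis1-T-/-, replicate 2, and 0.86 without replicate 3. DESeq2 gave 0.87 for Il4ra without replicate 3, a fit that drops the spread between the libraries labelled Themis1-T-/- and rests on that of the Vav1R63W pair. The edgeR interval with all libraries takes in changes in either direction. Per kilobase, Il21r over Il4ra was 1.26 and 2.23 in the libraries labelled Themis1-T-/- and 3.32 and 4.16 in Vav1R63W cells. The promoter windows of this pair are shown because they are neighbouring receptor genes on the same strand. Without the library labelled Themis1-T-/-, replicate 2, the edgeR log2 fold changes of both were negative, -1.06 for Il21r and -0.33 for Il4ra. A difference between the genes was not tested. The windows are from RefSeq (GRCm38.p6), 250 bases before to 50 bases after the annotated start, read in the direction of the gene, at chr7:125603179-125603478, plus strand, for Il21r and chr7:125552021-125552320, plus strand, for Il4ra. Capitals mark matches on either strand to the NF-kB motif (GGG and CC with 5 free bases between) or the STAT motif TTCNNNGAA.
Il21r: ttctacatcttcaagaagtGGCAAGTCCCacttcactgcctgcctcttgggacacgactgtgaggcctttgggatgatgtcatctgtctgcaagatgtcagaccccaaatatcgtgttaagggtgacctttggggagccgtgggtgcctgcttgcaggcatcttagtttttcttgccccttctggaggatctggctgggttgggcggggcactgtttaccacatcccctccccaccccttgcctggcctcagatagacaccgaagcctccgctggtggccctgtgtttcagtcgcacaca
Il4ra: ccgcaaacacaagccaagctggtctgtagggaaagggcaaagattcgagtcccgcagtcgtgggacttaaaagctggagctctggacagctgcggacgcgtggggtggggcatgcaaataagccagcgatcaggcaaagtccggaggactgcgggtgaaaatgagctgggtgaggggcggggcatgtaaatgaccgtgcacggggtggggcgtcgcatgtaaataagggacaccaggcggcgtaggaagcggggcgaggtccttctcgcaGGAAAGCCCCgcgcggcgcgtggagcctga

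Positions are counted from the RefSeq start, which is also the printed gene start for Il21r but lies 151 bases downstream of it for Il4ra, so that much of that window is inside the gene as annotated by GENCODE. An NF-kB match began at position -231 from the Il21r start and at position 21 of Il4ra; neither window held the STAT motif. Of 32851 RefSeq promoters, 50.8% hold the NF-kB letters and 8.30% the STAT letters, so the NF-kB match is common. The Il21r window also held a FOXO motif (GTAAACA, read on the other strand) at -38 and a RUNX motif (TGTGGT, likewise) at -33, which share bases; 3.65% and 16.8% of promoters hold these. The AP-1 motif TGANTCA, in 7.81% of promoters, was in neither. Such matches describe the letters only.

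Of the IL-2 receptor, Il2rb and Il2rg were among the most abundant transcripts and Il2ra was lower, although CD25 protein was a sorting marker. Il2ra (ENSMUSG00000026770, GRCm38 chromosome 2, 11642807 to 11693193, plus strand) was at 223 and 325 CPM in the libraries labelled Themis1-T-/- and 310 and 274 CPM in the Vav1R63W libraries. Both the highest and the lowest values came from the libraries labelled Themis1-T-/-. Cells of both groups were sorted on CD25, the product of Il2ra, and what part the gate has in these values was not tested. The log2 fold change was -0.06 (95% interval -0.76 to 0.65, edgeR adjusted p = 1.000) and it was 0.20 without the library labelled Themis1-T-/-, replicate 2, and 0.0046 without Vav1R63W replicate 2.

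Il2rb (ENSMUSG00000068227, GRCm38 chromosome 15, 78479256 to 78495271, minus strand), the beta chain that also serves IL-15, was at 1193 and 1156 CPM in the libraries labelled Themis1-T-/- and 1559 and 1165 CPM in the Vav1R63W libraries. Vav1R63W replicate 2 stood above the other 3 libraries, which lay between 1156 and 1193 CPM. The log2 fold change was -0.19 (95% interval -0.62 to 0.25), and it was 0.0082 without Vav1R63W replicate 2. Il2rg (ENSMUSG00000031304, GRCm38 chromosome X, 101264378 to 101268255, minus strand), the chain shared by the IL-2, IL-4, IL-7 and IL-21 receptors, was at 809 and 607 CPM in the libraries labelled Themis1-T-/- and 707 and 612 CPM in the Vav1R63W libraries. Replicate 2 was the higher in each group. Its log2 fold change was 0.13 (95% interval -0.36 to 0.61), and it was -0.074 without the library labelled Themis1-T-/-, replicate 2. The adjusted p of both chains was 1.000 (edgeR). The annotation lists Gm20489, a predicted gene of the same strand that shares 728 exon bases with Il2rg and had 0 reads in all 4 libraries.

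Per kilobase, Il2rb over Il2ra was 7.12 and 4.73 in the libraries labelled Themis1-T-/- and 6.70 and 5.67 in Vav1R63W cells, and Il2rg over Il2ra was 8.68 and 4.46 against 5.45 and 5.35 in Vav1R63W cells. The libraries labelled Themis1-T-/- lay on both sides of the Vav1R63W libraries in each ratio. By the root mean square difference of log2 CPM centred on each gene's mean over the 4 libraries, the genes most like Il2ra among those with a mean of at least 50 CPM were Srp14 (0.020), Tex264 (0.035) and Arhgap9 (0.047). With 4 libraries this likeness is a description only.

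Il7r, the IL-7 receptor alpha chain of naive and memory T cells, was low beside Il2ra. Il7r (ENSMUSG00000003882, GRCm38 chromosome 15, 9505788 to 9530176, minus strand) was at 79.1 and 96.3 CPM in the libraries labelled Themis1-T-/- and 133 and 87.3 CPM in the Vav1R63W libraries. Vav1R63W replicate 2 was the highest and the rest lay close together. The log2 fold change was -0.30 (95% interval -1.24 to 0.65, edgeR adjusted p = 1.000), and it was 0.0066 without Vav1R63W replicate 2. Per kilobase, Il2ra over Il7r was 2.30 and 2.76 in the libraries labelled Themis1-T-/- and 1.90 and 2.56 in Vav1R63W cells, so Il2ra exceeded Il7r in every library. The promoter windows of Il2ra (chr2:11642542-11642841, plus strand) and Il7r (chr15:9529827-9530126, minus strand) are shown as those of the pair of receptor chains that regulatory T cells are known to carry in opposite amounts, with capitals as above.
Il2ra: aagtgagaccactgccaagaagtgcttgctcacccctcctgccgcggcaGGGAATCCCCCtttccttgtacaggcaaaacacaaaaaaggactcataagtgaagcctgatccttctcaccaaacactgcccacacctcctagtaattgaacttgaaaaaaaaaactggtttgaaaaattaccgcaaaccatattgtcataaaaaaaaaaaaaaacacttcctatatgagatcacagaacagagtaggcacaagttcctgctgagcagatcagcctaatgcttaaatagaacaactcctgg
Il7r: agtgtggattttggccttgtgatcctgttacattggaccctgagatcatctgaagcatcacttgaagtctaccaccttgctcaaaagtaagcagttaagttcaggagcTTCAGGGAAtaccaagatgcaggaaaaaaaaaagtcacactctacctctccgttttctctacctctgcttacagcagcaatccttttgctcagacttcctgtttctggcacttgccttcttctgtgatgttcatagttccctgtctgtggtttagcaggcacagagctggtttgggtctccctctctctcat

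The RefSeq start of Il2ra lies 15 bases upstream of the printed gene start. That of Il7r lies 300 bases downstream of the printed start, so the whole Il7r window is inside the gene as annotated by GENCODE. In the Il2ra window, overlapping matches to the NF-kB motif began at -201 and -200. The Il7r window held the STAT motif at -142, the 1 match to it among the 7 receptor genes with a window, and a RUNX motif at position 4. NF-kB letters were in 5 of the 7 windows, the others being Il6ra and Il6st besides those printed. Il2rb, Il10ra and Il27ra were not matched.

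The IL-6 receptor chains had the widest spread, mostly within Vav1R63W cells. Il6st (ENSMUSG00000021756, GRCm38 chromosome 13, 112464070 to 112510086, plus strand), which encodes gp130, was at 143 and 213 CPM in the libraries labelled Themis1-T-/- and 84.0 and 193 CPM in the Vav1R63W libraries. Il6ra (ENSMUSG00000027947, GRCm38 chromosome 3, 89864059 to 89913196, minus strand), the chain that binds IL-6, was at 69.9 and 106 CPM in the libraries labelled Themis1-T-/- and 34.7 and 73.0 CPM in the Vav1R63W libraries. Vav1R63W replicate 2 was the lowest library and the library labelled Themis1-T-/-, replicate 3, the highest for both genes. The Vav1R63W pair differed 2.29-fold in Il6st and 2.10-fold in Il6ra, more than in 92.3% and 90.2% of the 3591 genes with a mean of at least 50 CPM. Each was the receptor gene most like the other across libraries (root mean square difference 0.17). The edgeR log2 fold changes were 0.38 for Il6st (95% interval -1.02 to 1.79) and 0.73 for Il6ra (95% interval -0.78 to 2.25), with adjusted p = 1.000 for each. Without Vav1R63W replicate 2 they were -0.11 and 0.27.

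The share of reads left unassigned differed between libraries, and its part in the Il6ra difference was not tested. This share was largest where Il6ra was lowest and smallest where Il6ra was highest, and the Il6ra reads are themselves in its denominator. An antisense gene, Gm42809, shares 242 exon bases (2.80% of those of Il6ra), and reads that fall on both are left out of the column without strand. Relative to the sum of the strand columns, which keeps them, Il6ra lost 8.46% and 2.24% of its reads in the libraries labelled Themis1-T-/- and 30.6% and 10.8% in Vav1R63W replicates 2 and 3. With the strand columns summed the log2 fold change was 0.52 (edgeR adjusted p = 1.000). Without strand marking in the library kit, these reads cannot be given to either gene. Il4ra lost 5.47% to 7.41% in the same way, beside the antisense gene Gm44876, and the other 8 genes at most 0.110%. For Il2rg this comparison cannot show reads shared with Gm20489, which is on the same strand and overlaps 30.5% of its exon bases, so the level of Il2rg per kilobase and its ratios may be too low.

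**Figure D3:**
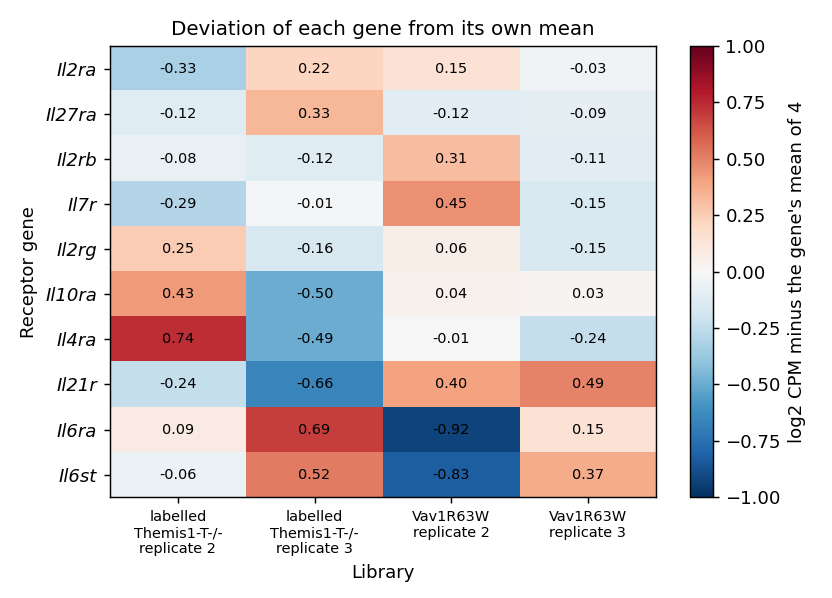
Deviation of log2 CPM of each receptor gene from its own mean over 4 libraries, printed in each cell, with the libraries labelled Vav1R63W-Themis1-T-/- in the left columns. Il6ra and Il6st are lowest in Vav1R63W replicate 2 (-0.92 and -0.83), Il4ra is highest in the library labelled Themis1-T-/-, replicate 2 (0.74), and Il21r is negative in both libraries of that label.

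Il27ra and Il10ra, the private chains of receptors for IL-27 and for the suppressive cytokine IL-10, differed mainly within the libraries labelled Themis1-T-/-. Il27ra (ENSMUSG00000005465, GRCm38 chromosome 8, 84030294 to 84042589, minus strand) was at 367 and 502 CPM in the libraries labelled Themis1-T-/- and 369 and 375 CPM in the Vav1R63W libraries. The library labelled Themis1-T-/-, replicate 3, stood above the other 3. Its log2 fold change was 0.25 (95% interval -0.34 to 0.85), and it was 0.48 without the library labelled Themis1-T-/-, replicate 2, and -0.022 without replicate 3 of that label. DESeq2 also gave 0.48 for Il27ra without replicate 2, where the spread is that of the Vav1R63W pair alone, which differed 1.02-fold. Il10ra (ENSMUSG00000032089, GRCm38 chromosome 9, 45253837 to 45269149, minus strand) was at 98.5 and 51.8 CPM in the libraries labelled Themis1-T-/- and 75.6 and 74.9 CPM in the Vav1R63W libraries. The Vav1R63W pair lay between the libraries labelled Themis1-T-/-, which differed 1.90-fold. The log2 fold change was 0.017 (95% interval -1.17 to 1.205), with a sign that turned with the scaling of the libraries (-0.00045 with library totals alone). It was -0.49 without the library labelled Themis1-T-/-, replicate 2, and -0.0056 without Vav1R63W replicate 2. The adjusted p of Il27ra and of Il10ra was 1.000 (edgeR).

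Across libraries, Il10ra, Il4ra and Il2rg were all highest in the library labelled Themis1-T-/-, replicate 2, and lowest in replicate 3 of that label. Il2ra and Il27ra were both highest in replicate 3 of that label. Il21r was the gene least like any other member, its nearest being Il2rb at a root mean square difference of 0.41, against 0.14 for the closest pair, Il2rb and Il7r. Of the 10 genes, 6 had a positive and 4 a negative edgeR log2 fold change, with a median of 0.07, beside a median of 0.0019 over all 10216 genes tested.

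**Figure D4:**
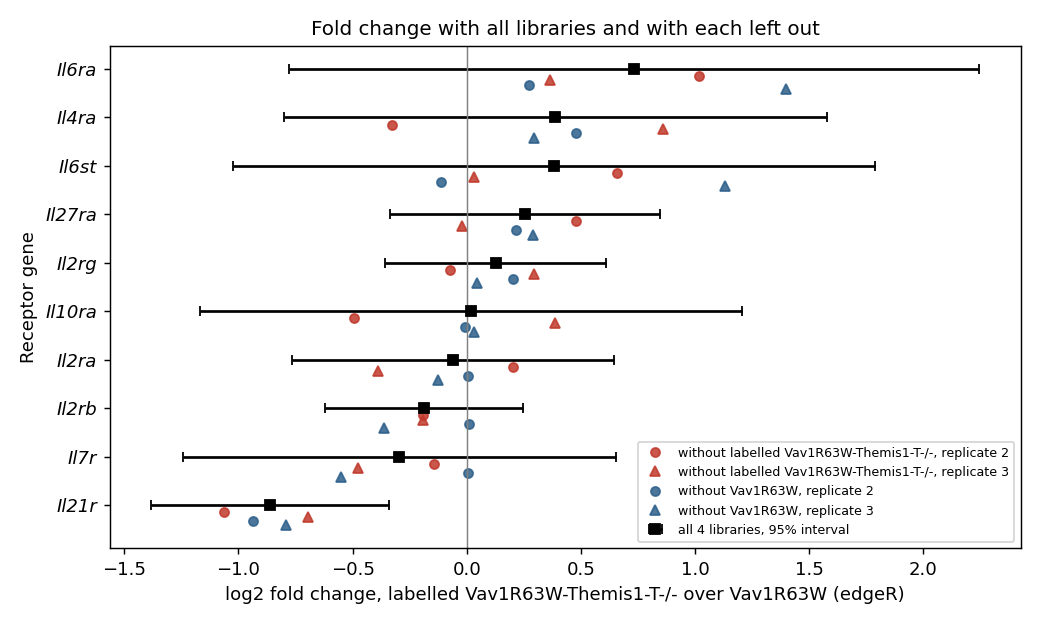
Log2 fold change of each receptor gene (libraries labelled Vav1R63W-Themis1-T-/- over Vav1R63W, edgeR; squares with 95% intervals) with the values on leaving out each library in turn below it. The interval of Il21r lies below 0, from -1.38 to -0.34, those of the other 9 genes include 0, and the values of 8 genes cross 0 when 1 library is left out, Il21r and Il6ra being the exceptions.

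Downstream of the receptors, none of the 11 JAK and STAT genes passed the edgeR test, and 5 had a positive and 6 a negative log2 fold change (median -0.06). Tyk2, a JAK kinase that serves gp130 and the IL-10 receptor, was at 14.98 and 21.3 CPM in the libraries labelled Themis1-T-/- and 49.6 and 48.1 CPM in the Vav1R63W libraries. The edgeR log2 fold change of Tyk2 was -1.40 ± 0.63 (SE), with an adjusted p of 1.000. Stat6, the factor downstream of IL-4, was at 321 and 482 CPM against 331 and 280 CPM in the Vav1R63W libraries (log2 fold change 0.43, edgeR adjusted p = 1.000). Jak3, the kinase bound to the common gamma chain, was at 199 and 165 CPM against 204 and 167 CPM in the Vav1R63W libraries. Stat3, which acts downstream of IL-21 and IL-6, was at 377 and 229 CPM in the libraries labelled Themis1-T-/- and 412 and 257 CPM in the Vav1R63W libraries. Jak3 and Stat3 are named here after their values were seen, as the partners of Il2rg and Il21r.

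None of the 11 tested of 13 negative regulators of JAK-STAT signalling passed, with 4 positive and 7 negative log2 fold changes (median -0.21, also with Socs5 set to a floor of 3 reads per library). Cish, a feedback inhibitor induced by IL-2 through STAT5, was at 191 and 162 CPM in the libraries labelled Themis1-T-/- and 122 and 136 CPM in the Vav1R63W libraries. For Cish edgeR gave a log2 fold change of 0.47 ± 0.23 (SE) and an adjusted p of 1.000. The column without strand left out 48.4% to 54.1% of the Cish reads as shared with another gene, so its level is uncertain. Socs5, a suppressor of cytokine signalling, had 0 and 1 reads against 54 and 12 reads in the Vav1R63W libraries, too few for a level (edgeR adjusted p = 0.998).

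Of 21 other interleukin receptor subunits, 10 were tested and none passed, with 6 positive and 4 negative log2 fold changes (median 0.41). Il18r1, the IL-18 receptor chain, had 209 and 100 reads in the libraries labelled Themis1-T-/- and 5 and 2 reads in the Vav1R63W libraries (edgeR adjusted p = 0.965, DESeq2 adjusted p = 0.0952). Il17ra, the IL-17 receptor chain, was at 246 and 232 CPM against 124 and 208 CPM in the Vav1R63W libraries (log2 fold change 0.55, edgeR adjusted p = 1.000). Among 15 ligands only Ebi3 and Il2 had enough reads to be tested. Ebi3, a subunit of IL-27, was at 12.6 and 10.7 CPM in the libraries labelled Themis1-T-/- and 2.21 and 9.17 CPM in Vav1R63W, and Il2 had 10 and 9 reads against 11 and 11 reads in Vav1R63W. Neither passed (edgeR adjusted p = 1.000 for each), and Ebi3 lost 52.1% to 62.2% of its reads as shared with another gene. Il21 had 1 read in all, in Vav1R63W replicate 3, so the ligand of Il21r was hardly detected in these cells. None of 6 transcription factors that act on Il2ra or Il7r passed, with 4 positive and 2 negative log2 fold changes (median 0.14). Runx1 was at 64.1 and 64.0 CPM in the libraries labelled Themis1-T-/- and 33.5 and 45.7 CPM in Vav1R63W (log2 fold change 0.72), and Ets1 was at 861 and 822 CPM against 938 and 956 CPM in Vav1R63W (log2 fold change -0.15), with an edgeR adjusted p of 1.000 for each. These counts stand beside 0 calls among all genes tested.

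**Figure D5:**
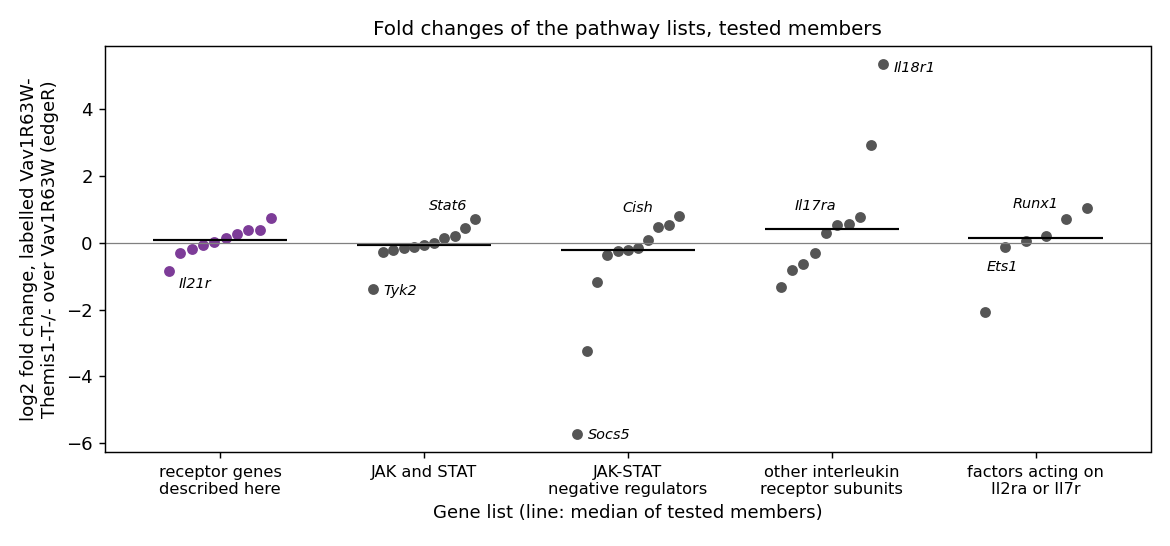
Log2 fold changes (libraries labelled Vav1R63W-Themis1-T-/- over Vav1R63W, edgeR) of the receptor genes and of the tested members of the pathway lists, each gene a point and each median a line; the ligands, of which 2 were tested, are not drawn. Medians run from -0.21 for the negative regulators to 0.41 for the other receptor subunits, and the extreme points Socs5 and Il18r1 rest on few reads in a group.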

How the data were processed

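RNA of 4 libraries was sequenced, 2 per group, and each was grouped by its title. The authors trimmed reads (Trim Galore) and ran the aligner STAR, per the submitters' processing notes, which name build mm9, while the design text names Ensembl release 90. Each library's deposited file gives raw counts of reads by gene, 1 column ignoring strand (used here) and 1 for each strand. The deposited series table holds the same counts in each library for all 52636 genes, and adds the authors' comparison (fold change on the ratio scale and in log2, with p-values), made with DESeq2 per the design text; its 4 columns of normalized counts were not used. Between 21.1% and 23.1% of reads stood in the summary lines that name no gene and were left out.

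Levels are CPM of plain library totals. The test was edgeR 4.0.16 (R 4.3.3, TMM, filterByExpr with a minimum count of 10, robust quasi-likelihood F test, two-sided, no block), with Benjamini-Hochberg adjustment over all genes and a call at an adjusted p under 0.05. It was tested on simulated data with large set changes and a smaller spread than these libraries show. That run does not show how many changes the test would find here. Standard errors were taken as the absolute log2 fold change over the root of its F, and SDs are over 2 libraries. Coordinates and exon lengths were matched by gene ID in GENCODE M21, on GRCm38; 52403 IDs had a symbol. Alternatives were DESeq2 1.42.0, limma-voom (limma 3.58.1), other scalings and filters, a block, summed strand columns and leaving out each library. The members, 5 gene lists and 5 marker lists were chosen with earlier results of these data known. The named genes are the members, Themis and, of each list where none passed, the 2 genes with the smallest p. Genes named outside this rule, including Gm20489, Gm42809, Gm44876 and Il21, were named after their values were seen.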

Additional observations from a re-analysis of the deposited data

How the results depend on the processing

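edgeR called 0 genes and 0 of the 10 receptor genes with all 4 libraries, and also 0 with limma-voom, DESeq2 size factors, plain library totals, without a filter on counts, with at least 1 CPM required in 2 libraries, summed strand columns, the replicate block and each library left out. DESeq2 called 206 genes and 1 receptor gene, Il21r. With DESeq2 on leaving out each library, added after seeing the data, it called 2165 genes without the library labelled Themis1-T-/-, replicate 2, 882 without replicate 3 of that label, 631 without Vav1R63W replicate 2 and 414 without Vav1R63W replicate 3, with 2, 2, 1 and 0 receptor genes. In the same order, these DESeq2 fits tested 10633, 10611, 10140 and 10424 genes. Whether receptor genes were called more often than all genes was not tested, so no conclusion about the receptors is drawn from these counts. These fits, like those of edgeR without a library, have 1 library in a group, which is assumed to vary like the other pair. Whether replicate numbers pair the libraries is not stated, and 2 libraries per group cannot decide it. Deviations of same-numbered libraries correlated at 0.018 across 10216 genes. The replicate block gave 163 genes at an unadjusted p under 0.05 against 509 without it. A block leaves less information on the spread, which alone can lower that count. Il21r was at -0.87 with the block. Of 160 log2 fold changes recomputed for the receptor genes, 138 kept their direction and 22 did not, 19 of these on leaving out a library, and the cause was not tested. Il10ra was at -0.012 with limma-voom, -0.00045 with plain library totals and -0.048 with the replicate block, against 0.017. On leaving out each library with edgeR, the log2 fold change ranged from -0.39 to 0.20 for Il2ra, -0.36 to 0.0082 for Il2rb, -0.074 to 0.29 for Il2rg, -0.55 to 0.0066 for Il7r, -0.33 to 0.86 for Il4ra, -0.11 to 1.13 for Il6st, -0.49 to 0.39 for Il10ra, -0.022 to 0.48 for Il27ra, 0.27 to 1.40 for Il6ra and -1.06 to -0.69 for Il21r. DESeq2 gave opposite signs to those with all libraries without the library labelled Themis1-T-/-, replicate 2, for Il2ra (0.21), Il2rg (-0.070), Il4ra (-0.32) and Il10ra (-0.49), without replicate 3 of that label for Il27ra (-0.013), and without Vav1R63W replicate 2 for Il2ra (0.0095), Il2rb (0.013), Il7r (0.012) and Il6st (-0.11). Il21r and Il6ra kept their sign under every alternative run. The TMM factor was farthest from 1 in the library labelled Themis1-T-/-, replicate 3 (0.974), and DESeq2 size factors moved the median log2 fold change of all genes by 0.0037 and plain library totals by -0.024.

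Each receptor gene had at least 486 reads in every library. The 95% intervals included 0 for 9 of the 10 genes.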
